A study of Mus musculus with 9 samples.

Results

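The synovial lining of the mouse knee holds fibroblasts that secrete lubricin, the product of *Prg4* (ENSMUSG00000006014, GRCm38 chromosome 1, 150449412 to 150466165, minus strand). Mature fibroblast-like synoviocytes (FLS) of the lining are known for *Prg4* together with *Clic5*, an intracellular chloride channel family gene, and *Tspan15*, a tetraspanin, and they lack *Thy1*, a surface glycoprotein of the sublining fibroblasts. Lubricin is also made by superficial cells of articular cartilage and by cells of tendon and meniscus surfaces, so *Prg4* alone does not name a lining cell. The cells described here are the *Prg4*+ *Thy1*-negative cells in which no transcript of *Clic5* (chromosome 17, 44188584 to 44280172) or *Tspan15* (chromosome 10, 62185396 to 62231251) was found. They were gated on single-cell counts of unique molecular identifiers (UMIs), each of which stands for a captured molecule. Barcodes with 500 or more genes and 1000 or more UMIs, of which no more than 10% were mitochondrial, were kept. A cell entered the gate with at least 10 *Prg4* UMIs per 10000, with 0 UMIs of *Thy1*, *Cd34*, *Clic5*, *Tspan15*, *Ptprc* and *Pecam1*, and with fewer than 2 of 6 cartilage genes (*Cytl1*, *Snorc*, *Chad*, *Hapln1*, *Matn3*, *Col9a2*) detected. The gate held 153 of 4788 kept cells (3.20%), from 5161 barcodes. The cells were thus chosen by their measured UMIs of these genes. All 13 gate genes were left out of every test, and *Prg4* and the absent genes are not results.

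All mice were *Gdf5-Cre;Tom;Pdgfrα-H2BGFP* animals labelled 11 to 12 weeks old, in which *Gdf5-Cre* switches on tdTomato (Tom) in descendants of the embryonic joint interzone and the *Pdgfrα* promoter drives a nuclear green reporter in fibroblasts and progenitors. Cells of dissected knee joints were digested with collagenase and sorted as Tom+, the *Gdf5* lineage, or as Tom-GFP+, other *Pdgfrα*-expressing cells. Steady-state libraries came from naive knees (2 Tom+, 1 Tom-GFP+), and injured libraries from knees 6 days after surgery in which the cartilage of the trochlear groove was scratched to its full thickness (4 Tom+, 2 Tom-GFP+). Surgery without a scratch was not analysed here, so arthrotomy and cartilage damage cannot be told apart.

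The gated cells came from every library, but unevenly. The steady-state Tom+ libraries gave 6 and 12 cells and the Tom-GFP+ library 2. The injured Tom+ libraries gave 25, 65, 11 and 15 cells, and the injured Tom-GFP+ libraries 15 and 2. Tom+ injured library 2 therefore held 42.5% of all gated cells. The library totals ran from 2866464 to 15033902 UMIs. Gated cells had a median of 11291 UMIs (1473 to 29767), against 17254 in lining cells, and 27 of them had under 5000. The shallowest set was that of Tom-GFP+ injured library 1, with a median of 2353 UMIs. Of the 153 cells, 1 had a barcode that also occurred in another library.

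For comparison, lining cells passed the same gate but had UMIs of both *Clic5* and *Tspan15* (465 cells), and a further 88 cells had UMIs of only 1 of these genes. *Thy1*+*Cd34*+ fibroblasts, the main sublining type, had UMIs of both of those genes and none of *Clic5* or *Tspan15* (1846 cells). Absence of *Clic5* rests on depth. In lining cells *Clic5* and *Tspan15* together made up 12.1 UMIs per 10000, so a gated cell of median depth would have held 13.7 UMIs at that level, and 136 of the 153 cells would have held at least 3. That level is a mean over cells chosen for holding both genes. The lowest lining cell stood at 0.564 per 10000 and 50 of the cells outside the gate had a single UMI of the pair, so gated cells with low levels cannot be told from cells without.

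*Prg4* itself varied more than 10-fold among the gated cells, with a median of 44.4 UMIs per 10000 and a highest value of 630. The medians were 30.4 and 23.1 in the steady-state Tom+ libraries, and 38.2, 62.8, 59.8 and 116 in the injured Tom+ libraries. Lining cells stood higher, at medians from 247 to 471 per library. Only 35 gated cells reached the 10th percentile of lining cells (188). Just inside the threshold were cells at 10.7, 10.7 and 10.9 and just outside it cells at 9.64, 9.50 and 9.24, so the cut fell within a continuous range. A further 440 cells met every condition except that on *Prg4*, and 223 of them had 0 *Prg4* UMIs. Free *Prg4* RNA was looked for in cells that should lack the gene. Of 71 immune cells (median 8462 UMIs), 46.5% had a *Prg4* UMI, yet the highest stood at 7.995 per 10000, and the highest of 22 endothelial cells (median 17056 UMIs) at 1.92. In 8 gated cells, with 1473 to 2266 UMIs, the gate was passed on at most 3 *Prg4* UMIs, and in these a few free UMIs and expression cannot be told apart.

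**Figure D1:**
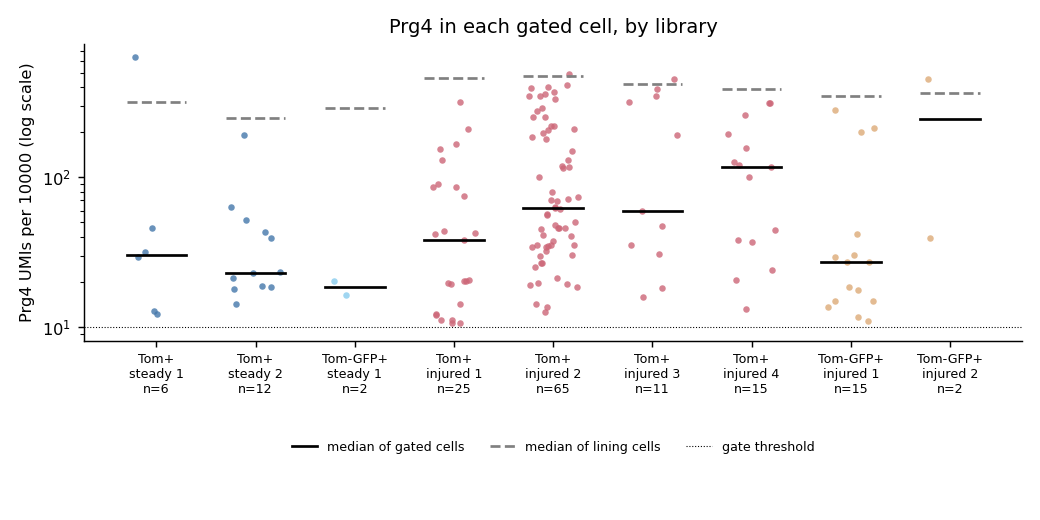
Each point is one gated cell, placed by library on the x axis and by *Prg4* UMIs per 10000 on a log y axis; black bars are medians of the gated cells, dashed bars medians of lining cells and the dotted line the gate threshold of 10. The gated cells spread from 10.7 to 630 and their medians lie under the lining median in every library.

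The label of these cells was checked against *Creb5*, *Dlx3*, *F13a1* and *Fgl2*, which were given with the gate. They were chosen with results of these same data known, so their levels are a description without a test. *Creb5*, a transcription factor, stood at 207 CPM (UMIs per 1000000, summed over the gated cells of a library) in Tom+ steady-state library 2 and at 93.3, 222, 165 and 220 CPM in the injured Tom+ libraries, against 270 to 422 in lining cells and 56.9 to 151 in *Thy1*+*Cd34*+ fibroblasts. *F13a1*, the coagulation factor XIII A chain (chromosome 13, 36867178 to 37050244), stood at 11.5 CPM in steady-state library 2 and at 180, 375, 465 and 308 in the injured libraries, against 854 to 1782 in lining cells and 1.03 to 25.4 in the fibroblasts. *Dlx3*, a homeobox factor, stood at 16.1 to 34.4 CPM in gated cells, 66.8 to 138 in lining cells and 1.40 to 6.21 in the fibroblasts. *Fgl2* stood at 97.8 to 330, 598 to 983 and 24.6 to 204 CPM. None of these 4 genes was therefore highest in the gated cells, and all had their highest levels in lining cells. Only 73 of the 153 cells had a UMI of *F13a1* and 26 a UMI of *Dlx3*.

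The gate did not hold a single kind of cell. Of the 153 cells, 55 (35.9%) had at least 2 of the 3 lining genes *Itga6*, *Htra4* and *Col22a1*, against 98.3% of lining cells. At least 2 markers of another list were found in 44 cells for chondrocytes, 37 for osteoblasts, 37 for tenocytes, 26 for mural cells and 18 for cycling cells, with overlap between lists. Another 33 cells had fewer than 2 markers of every one of these lists. Immune markers reached 2 in 1 cell and endothelial or adipocyte markers in 0 cells, and the defining genes *Cdh5*, *Kdr*, *Cd74*, *Fcer1g*, *Plin1* and *Cidec* had no UMI in any gated cell. Of the same lists *Lyz2* had 25 UMIs in 17 gated cells, *Egfl7* and *Adipoq* 3 each, *Car3* 2 and *Tyrobp* 1. The osteoblast and mural lists are not specific here. At full depth they reached 2 markers in 58.3% and 29.5% of lining cells, in which *Bglap2* and *Rgs5* were higher than in the gated cells (adjusted p = 0.0079 and 3.62e-06). Lining cells were deeper, and the mural order turned at equal depth. With cells thinned to 5000 UMIs, the mural list reached 2 markers in 10.3% of lining and 13.5% of gated cells. The osteoblast list did so in 32.1% and 15.1%. The mural gene *Acta2* was seen in 4.73% of lining and 23.5% of gated cells at full depth. Also at full depth, the chondrocyte and tenocyte lists reached 2 markers in 4.09% and 4.73% of lining cells but in 37.7% and 20.1% of *Thy1*+*Cd34*+ fibroblasts, against 28.8% and 24.2% of gated cells. *Bglap* and *Bglap2* are near-identical copies whose reads cannot be firmly divided.

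What the cells expressed moved with their *Prg4* level. In the 33 cells at 10 to 20 *Prg4* UMIs per 10000, 3.03% had at least 2 of the 3 lining genes and pooled *Col1a1*, a fibrillar collagen, stood at 102 per 10000. In the 30 cells over 200, the share was 86.7% and *Col1a1* stood at 28.0. Pooled *Comp*, a cartilage and tendon matrix protein, went from 15.6 to 1.24 per 10000 and *Aspn*, a small leucine-rich proteoglycan, from 7.71 to 0.932 between the same ends, while *Htra4*, a serine protease, went from 1.13 to 10.6 and *F13a1* from 0.0593 to 6.96. *Fn1*, fibronectin, went from 37.9 to 135 and so came close to the 148 of lining cells. *Hbegf*, a ligand of the EGF receptor, stayed low throughout, at 0.653 in the lowest and 1.34 in the highest of these ranges, against 25.7 in lining cells and 4.11 in cells with 1 of *Clic5* and *Tspan15*. *Cd55*, a complement regulator, likewise stood at 0.406 per 10000 in cells over 200 against 2.95 in lining cells. Within the Tom+ injured libraries alone, the same ends stood at 112.5 and 27.1 per 10000 for *Col1a1*, 18.8 and 1.26 for *Comp*, 0.0780 and 6.61 for *F13a1* and 0.624 and 1.46 for *Hbegf*. Libraries were unevenly spread over the ranges, with 7 steady-state cells among the 33 lowest and 1 among the 30 highest, of which 17 came from Tom+ injured library 2. These ranges are cuts of a continuous score, and depth moved with them, from a median of 8005 UMIs in the lowest to 13051.5 in the highest.

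The share of gated cells was next compared between injured and naive knees. Among kept cells without *Ptprc* or *Pecam1* UMIs, the gated cells made up 1.83% and 2.22% of the steady-state Tom+ libraries. In the injured Tom+ libraries they made up 3.33%, 7.99%, 2.30% and 2.53%. All 4 injured libraries lay above both steady-state libraries, with means of 4.03% ± 2.67 (SD, n = 4) and 2.03% ± 0.274 (SD, n = 2), but the difference of 2.01 points was within the spread (two-sided exact permutation test, p = 0.4, with 0.0667 the smallest p that 4 against 2 libraries can give). Without Tom+ injured library 2, which alone set most of it, the difference was 0.688 points. In the Tom-GFP+ libraries the shares were 0.494% (95% Clopper-Pearson interval 0.0599 to 1.77) in the steady state and 3.06% (1.72 to 4.999) and 0.749% (0.0908 to 2.68) after injury, with no test for 1 against 2 libraries. Among cells with at least 5000 UMIs these shares were 0% (0 of 332 cells, interval 0 to 1.10), 1.72% (7 cells) and 0.800% (2 cells). The intervals cover counting error only. Drawn down to 5000 UMIs per cell, the same gate gave shares of 3.26% and 4.49% in the steady-state Tom+ libraries and 12.7%, 13.3%, 7.71% and 5.89% in the injured ones (p = 0.133 by the same exact test). Of the cells that passed the thinned gate, 123 had passed it at full depth, 34 had been *Thy1*+*Cd34*+ fibroblasts, 35 had held 1 of *Clic5* and *Tspan15*, 19 had been lining cells, 3 had held 2 or more cartilage genes and 110 had been in none of these classes. At 5000 UMIs the gate thus took in cells whose excluded genes were seen at full depth.

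**Figure D2:**
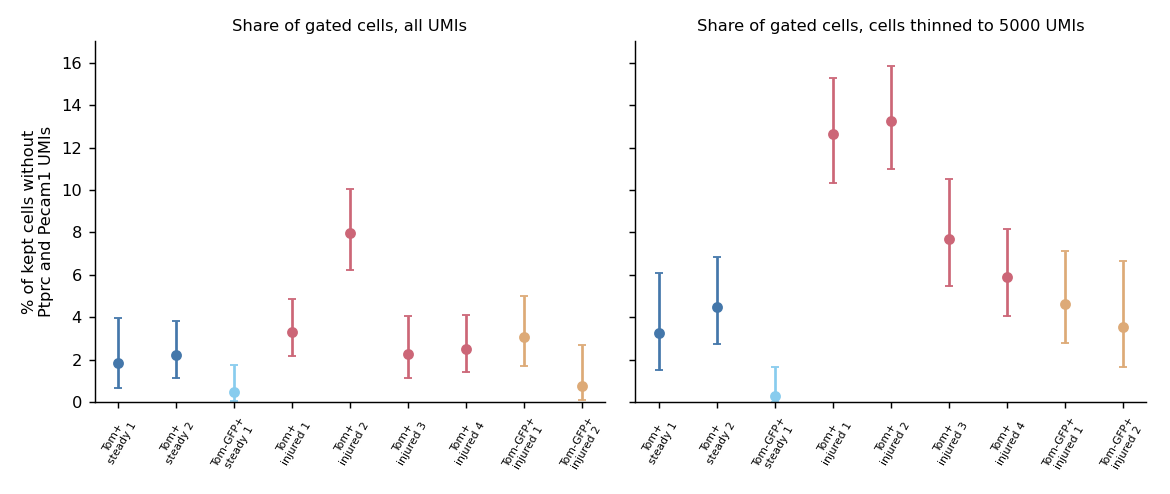
Each point is a library, with the gated cells as a percentage of kept cells without *Ptprc* and *Pecam1* UMIs on the y axis and the exact 95% binomial interval as bar; the left panel uses all UMIs and the right panel cells thinned to 5000 UMIs. Tom+ injured libraries run from 2.30% to 7.99% on the left and from 5.89% to 13.3% on the right, above the 2 Tom+ steady-state libraries in both panels.

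Set against the lining instead, the gated cells were 26.1% and 38.7% of gated plus lining cells in the steady-state Tom+ libraries and 31.6%, 31.0%, 8.94% and 15.2% in the injured ones, a difference of -10.7 points (two-sided exact permutation test, p = 0.333). The ranges overlapped. Gated cells with 2 or more markers of the osteoblast, tenocyte, mural, adipocyte, immune or endothelial list were then left out. With this filter the difference turned to 0.847 points. The filter was not applied to lining cells, of which 69.0% held such markers at full depth, against 52.9% of gated cells. In the Tom-GFP+ libraries the shares were 50.0% from only 4 cells in the steady state, and 57.7% and 8.70% after injury. Of the Tom+ gated cells 127 of 134 (94.8%) had a UMI of the tdTom reporter, and of the 19 Tom-GFP+ gated cells 2 had one and 15 had a UMI of the green reporter.

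Gated cells were then compared with lining cells of the same library, to describe how *Prg4*+ *Thy1*-negative cells with and without *Clic5* differed elsewhere in the transcriptome. Matrix genes were higher in the gated cells, and genes that mark mature FLS were lower. Over the 5 Tom+ libraries with at least 10 cells of both kinds, 553 of 7002 tested genes (7.9%) were higher in gated cells and 462 (6.6%) lower by a quasi-likelihood test in edgeR (Benjamini-Hochberg adjusted), 14.5% in all, and 529 genes were called without Tom+ injured library 2. The gate parted the cells by lining genes, so genes that go with *Clic5* were bound to differ, and the test describes the cells as gated.

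Of the lining genes outside the gate, leaving out the 4 described above, 9 of 12 tested were lower and 2 higher (median log2 fold change -1.89, against -0.0067 over all genes tested). *Hbegf* stood at 80.4, 35.4, 124, 112 and 83.2 CPM in the gated cells of Tom+ steady-state library 2 and Tom+ injured libraries 1 to 4, against 1195, 1891, 2987, 2711 and 2546 in the lining cells. The 2 classes did not overlap (log2 fold change -4.76, standard error 0.20, adjusted p = 4.84e-09). *Cd55* stood at 11.5 to 48.3 CPM against 206 to 329 (log2 fold change -3.52, standard error 0.23). *Has1*, a hyaluronan synthase, stood at 45.9 to 254 CPM against 483 to 1056 (log2 fold change -2.11, standard error 0.17). The study used *Hbegf*, *Cd55*, *Has1*, *Cd44* and *Itga6* to define mature FLS in these samples, so their direction is not independent. *Htra4* (chromosome 8, 25024929 to 25038962), at 804, 515, 477, 506 and 377 CPM against 1244 to 1905, was lower as well (log2 fold change -1.67, standard error 0.16), and so were the transcription factors *Sox5* (-1.41, standard error 0.22) and *Foxo1* (-2.55, standard error 0.23). The study identified *Sox5* and *Foxo1* as FLS factors from these same samples, so their direction is not independent either. Of the higher genes, *Vcam1*, an adhesion molecule (2.22, standard error 0.30), and *Cdh11*, the cadherin of the lining (4.57, standard error 0.80), did not move alike in all libraries or cells. *Vcam1* stood at 80.4 to 161 CPM in the gated cells of injured libraries against 13.1 to 37.3, but at 11.5 against 50.7 in steady-state library 2. *Cdh11* was seen in only 21 gated cells.

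Genes of the hyaluronan and EGF receptor lists went the same way. Of 9 hyaluronan genes tested 5 were lower, among them *Ugdh*, which supplies the sugar nucleotide for hyaluronan (-1.71, standard error 0.21), and 1, the proteoglycan gene *Vcan*, was higher. *Has1* and *Cd44*, among these 5, were also counted in the lining list above, so the 2 lists are not independent. Of 4 genes of the EGF receptor and its ligands 3 were lower and none higher, namely the receptor *Egfr* (-0.70, standard error 0.20) and the ligands *Areg* (-2.51, standard error 0.35) and *Btc* (-3.44, standard error 0.42). Some of the largest decreases left almost no UMIs in the gated cells. *Rab37*, a small GTPase, had 2 UMIs in them against 675 in lining cells, a pooled ratio of 0.0139 (exact 95% counting interval 0.00168 to 0.0506). *Gpr1*, a chemerin receptor, had 1 against 399, a ratio of 0.0118 (0.000298 to 0.0661), and *Ackr2*, a decoy chemokine receptor, 2 against 405, a ratio of 0.0232 (0.00280 to 0.0845). These intervals cover counting error only and leave out the spread between libraries and cells. *Cystm1* (-4.22), *Aldh1a3*, an enzyme of retinoic acid synthesis (-4.20), *Slurp1* (-3.97) and *Cth*, an enzyme of cysteine synthesis (-3.36), were lower in all 5 libraries. *Aldh1a3* stood at 23.0, 12.9, 11.2, 5.88 and 9.78 CPM against 208 to 267.

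Matrix genes moved the other way. All of the 7 fibrillar collagen genes that passed the test, of 8 tested, were higher (median of the list 1.85). *Col1a1* (chromosome 11, 94936224 to 94953042) stood at 2732, 8177, 5938, 5513 and 5209 CPM in the gated cells against 1320, 1070, 1426, 1324 and 1577 in lining cells (log2 fold change 2.01, standard error 0.20, adjusted p = 1.16e-05). *Col3a1* stood at 2411 to 10091 CPM against 902 to 2905 (1.69, standard error 0.12). Of the matrix remodelling genes 14 of 17 were higher, *Tnc*, *Lum* and *Cthrc1* among them, and 1 was lower. *Tnc*, tenascin C, stood at 80.4, 402, 465, 253 and 347 CPM against 48.5 to 118. *Cthrc1* went against the list's direction in steady-state library 2, at 23.0 against 429 CPM, and stood at 612 to 1766 against 104 to 131 in the injured libraries. *Lum*, lumican, stood at 1117 to 3558 CPM against 16.9 to 148 (4.72, standard error 0.34). The lower gene was *Fn1*, at 3673, 4301, 9775, 12463 and 9450 CPM against 11757 to 17827 (-1.02, standard error 0.24), although in injured library 3 the gated cells were the higher ones. Of 14 metalloproteinase and inhibitor genes 9 were higher, with *Mmp14*, a membrane-bound collagenase, at 409 to 621 against 129 to 241 CPM in the injured libraries but 126 against 152 in the steady-state one, and *Timp3*, an inhibitor, was lower. All of the 5 proteoglycan genes that passed, of 6 tested, were higher.

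The named genes with the largest increases were led by *Mmp13*, a collagenase (7.54, standard error 0.48), *Cilp*, a cartilage matrix protein (6.38, standard error 0.50), and *Mmp3*, stromelysin (5.71, standard error 0.47). They rested on few cells. *Mmp13* was seen in 17 gated cells and 55.5% of its UMIs came from 1 of them, *Cilp* was seen in 21 cells and *Mmp3* in 26. *Aspn* (5.47, standard error 0.31), *Fndc1* (5.36, standard error 0.28), *Ogn*, osteoglycin (5.24, standard error 0.22), and *Itm2a*, a membrane protein (4.90, standard error 0.47), were spread over more cells, from 64 to 78 of the 153. *Crispld2* (5.34), *Fibin* (5.03) and *Gpm6b* (4.99) completed the list. *Comp* (chromosome 8, 70373558 to 70382066) was higher in all 5 libraries, at 6669, 721, 654, 488 and 504 CPM against 189, 29.4, 18.6, 27.0 and 16.2 (log2 fold change 4.85, standard error 0.17).

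Of 19 TGF-beta and BMP genes 8 were higher and 0 lower, including the ligands *Tgfb2* and *Tgfb3* and the targets *Id1* and *Id3*. Chemokine and cytokine genes were higher in 5 of 9 tested, and complement and coagulation genes in 7 of 10. Among the former, *Cxcl12* stood at 389 to 1942 CPM against 27.0 to 528, so the ranges of the libraries overlapped. Of 16 immediate early and heat shock genes 7, including *Fos* (1.06, standard error 0.13) and *Junb* (0.74, standard error 0.17), were higher and the 2 *Hspa1* genes lower. These are known to respond to tissue dissociation. No cell cycle gene of 11 and no glycolysis gene of 14 passed in either direction. Of the other cell type lists, the chondrocyte genes *Acan*, *Sox9*, *Comp* and *Cilp* (4 of 4 tested), the tenocyte genes *Scx* and *Fmod*, the osteoblast genes *Ibsp* and *Alpl* and the mural gene *Acta2* were higher, while *Bglap2* and *Rgs5* were lower. Of 6 sublining markers 4, *Cxcl12*, *Smoc2*, *Col15a1* and *Clec3b*, were higher and 2 lower, and the adipocyte gene *Lpl*, the 1 tested of its list, was higher. *Ibsp* and *Alpl* had UMIs in 10 and 6 gated cells. The summed tenocyte list stood at 1343, 946, 547, 11.8 and 279 CPM in the gated cells of the 5 libraries and the chondrocyte list at 7989, 1065, 1256, 571 and 577, and their part in the matrix result was not tested. Without the gated cells that held 2 or more osteoblast, tenocyte, mural, adipocyte, immune or endothelial markers, but with those that held chondrocyte markers, 404 genes were higher and 333 lower.

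**Figure D3:**
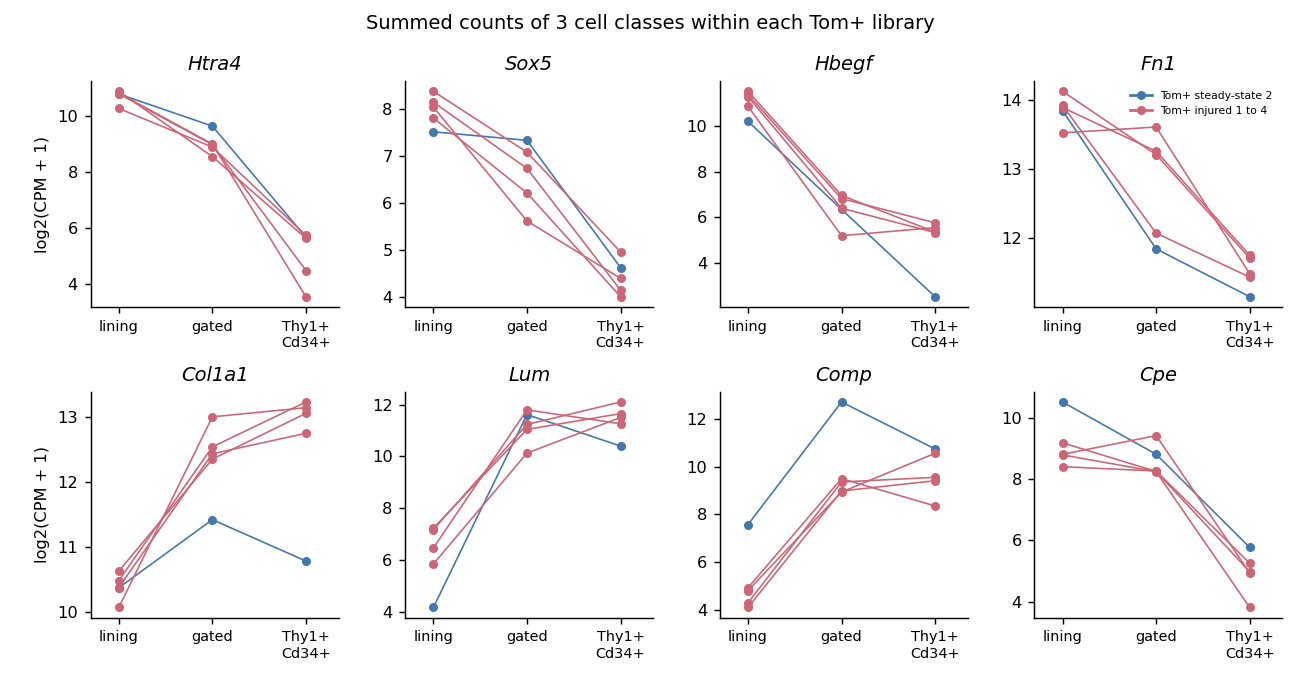
Panels give log2(CPM + 1) for 8 genes in lining cells, gated cells and *Thy1*+*Cd34*+ fibroblasts, with each line joining the 3 classes of one Tom+ library (1 steady-state, 4 injured). *Htra4*, *Sox5* and *Hbegf* fall from lining to gated cells in all 5 libraries, *Col1a1*, *Lum* and *Comp* rise, and *Cpe* separates the gated cells from the fibroblasts.

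Against *Thy1*+*Cd34*+ fibroblasts of the same libraries the gated cells were higher in lining genes. The gate asked for *Prg4* in these cells and not in the fibroblasts, so genes that go with *Prg4* were bound to differ. Of 10060 genes, 216 (2.15%) were higher and 378 (3.76%) lower, 5.9% in all, and 313 were called without Tom+ injured library 2. Chemokine, complement, Wnt and proteoglycan genes included more lower than higher members. Of 13 lining genes, again without the 4 given with the gate, 7 were higher and 1 lower (median 0.91, against -0.043 over all genes). *Htra4* stood at 10.7 to 52.6 CPM in the fibroblasts (log2 fold change 3.85, standard error 0.30, adjusted p = 2.37e-07) and *Sox5* at 15.1 to 30.2 against 161, 48.3, 135, 106 and 73.4 in the gated cells (2.03, standard error 0.22). *Col22a1*, a collagen of tissue junctions, was higher as well (3.76, standard error 0.31), although it had no UMI in the 12 gated cells of steady-state library 2. *Hbegf* was higher by 1.05 (standard error 0.30, adjusted p = 0.0495), and *Cd55* was lower (-1.68, standard error 0.32), at 11.5 to 48.3 against 51.2 to 168 CPM. The study tied *Sox5*, *Hbegf* and *Cd55* to FLS in these samples, so these genes are not independent here.

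*Cpe*, carboxypeptidase E (chromosome 8, 64592542 to 64693054), was seen in 107 of 153 gated cells and stood at 448, 302, 306, 683 and 303 CPM against 53.7, 13.1, 37.3, 29.8 and 30.6 in the fibroblasts (3.53, standard error 0.25, adjusted p = 7.27e-08). The classes did not overlap. *Cpe* did not differ from lining cells by the test (-0.46, standard error 0.24, adjusted p = 0.259). *Sparcl1*, a matricellular protein seen in 111 cells, stood at 196 to 612 against 21.6 to 81.1 CPM (2.70, standard error 0.22), and *Megf10*, an engulfment receptor, was higher by 3.08 (standard error 0.47) in 32 cells. *Rspo2*, a secreted amplifier of Wnt signals, was higher in all 5 libraries, at 23.0, 86.9, 331, 535 and 269 against 4.65, 30.8, 61.7, 108 and 63.5 CPM (2.00, standard error 0.18). *Fn1* was higher by 1.13 (standard error 0.20). *Bglap2*, *Phospho1*, *Bglap*, *Spp1* and *Mmp13* were higher in every library, by 4.72, 4.21, 3.74, 3.00 and 2.70. *Spp1* did not pass by DESeq2 or without Tom+ injured library 2 or 4, *Mmp13* did not pass without Tom+ injured library 1, and neither passed at a gate of 20 *Prg4* UMIs per 10000 or without the library block. *Phospho1*, a phosphatase of mineralising cells, had 52.1% of its UMIs in 1 cell. Of the lists of other cell types, 4 of 5 osteoblast genes (*Bglap*, *Bglap2*, *Ibsp*, *Alpl*), 2 of 4 mural genes (*Tagln*, *Des*), 1 of 6 tenocyte genes (*Cilp2*) and 1 of 5 chondrocyte genes (*Col2a1*, with 98.3% of its UMIs in 1 cell) were higher and *Acan* and the adipocyte gene *Lpl* lower, and their part in the result was not tested. *Alpl*, *Ibsp* and *Col2a1* were higher in 2 of the 5 libraries. The increases of *Phospho1*, *Bglap* and *Spp1* did not pass the test after gated cells with markers of other types were left out. Those cells held at least 2 markers of the osteoblast, tenocyte, mural, adipocyte, immune or endothelial list. *Bglap* is itself on the osteoblast list, and the fibroblasts were not filtered. The loss of *Bglap* therefore followed from the filter in part, and its meaning for *Phospho1* and *Spp1* was not tested.

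Among the genes lower than in fibroblasts, *Ccl11* (eotaxin), *Ctla2a* and *Efhd1* had 0 UMIs in all gated cells of these libraries. *Ccl11* stood at 67.6, 1.12, 13.2, 35.4 and 58.6 CPM in the fibroblasts. *Ccl8*, a chemokine, had 1 UMI in the gated cells, against 999 in the fibroblasts, a pooled ratio of 0.0105 (exact 95% counting interval 0.000265 to 0.0585). *C3*, complement component 3, stood at 34.4, 6.43, 26.7, 17.7 and 39.1 CPM against 1004, 92.8, 558, 848 and 710 (-4.71, standard error 0.24). *Dkk2*, a Wnt inhibitor, had 1 UMI against 926 (ratio 0.0113, 0.000286 to 0.0632), *Ace*, angiotensin-converting enzyme, 2 against 1055 (0.0199, 0.00240 to 0.0719) and *Olfml1* 1 against 413 (0.0254, 0.000640 to 0.142). Here too the intervals cover counting error only. *Mfap4*, a microfibril protein (-5.56), *Myoc* (-5.47) and *Apod*, a lipocalin (-5.28), were the others. *Efhd1* and *Myoc* did not pass the test without the library block. In all, 6 of 15 chemokine and cytokine genes, 7 of 13 complement and coagulation genes, 5 of 12 Wnt genes, 5 of 10 proteoglycan genes and 7 of 10 sublining markers were lower. The *Thy1* and *Cd34* gate parted the cells here, so the last count follows from the rule in part. Of the fibrillar collagens 3 of 9 were lower and 0 higher. *Col1a1* did not pass (-0.41, standard error 0.17, adjusted p = 0.206). *Cthrc1* and *Postn*, which mark activated fibroblasts, were lower by -1.67 (standard error 0.22) and -2.85 (standard error 0.33) on the log2 scale. The immediate early genes *Junb* and *Nr4a1*, the TGF-beta family ligands *Tgfb1* and *Inhba*, the EGF receptor ligands *Areg* and *Ereg* and the basement membrane collagens *Col4a1* and *Col4a2* were higher.

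**Figure D4:**
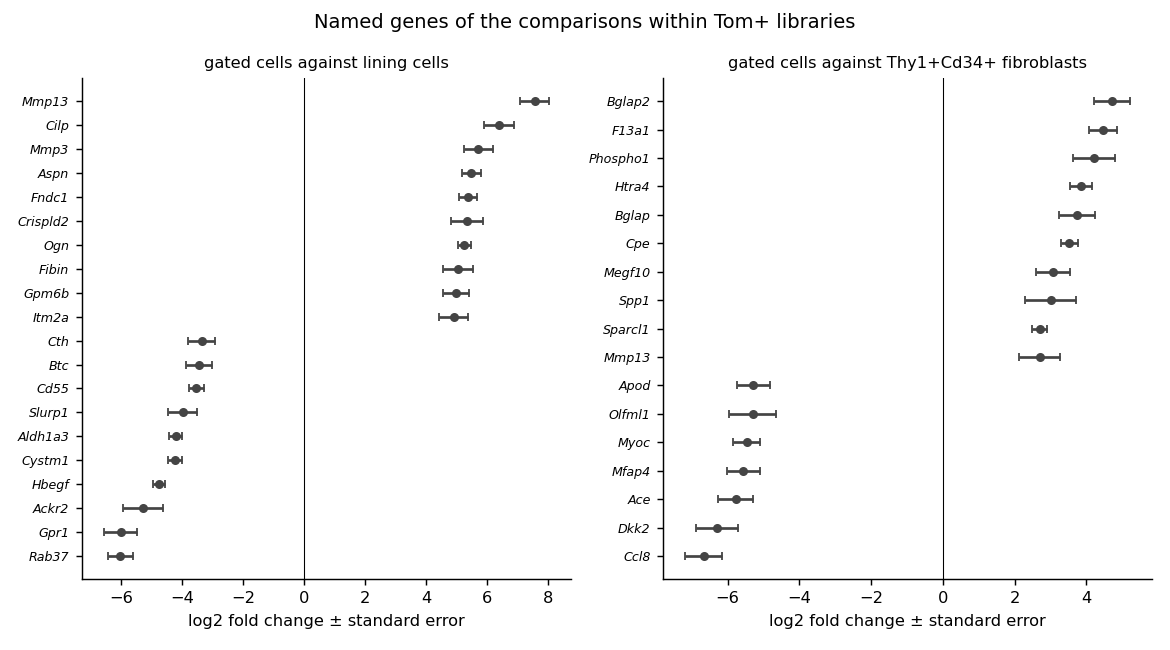
Points are log2 fold changes with standard errors on the x axis for the named genes of the gated cells against lining cells (left, 20 genes) and against *Thy1*+*Cd34*+ fibroblasts (right, 17 genes; the 3 genes with 0 UMIs in gated cells are left out), from 5 Tom+ libraries. Fitted values run from -6.02 to 7.54 on the left and from -6.66 to 4.72 on the right, and genes with 1 to 3 UMIs in the gated cells, such as *Rab37*, are drawn at values that the counts hardly fix; *F13a1*, given with the gate, is shown as a description.

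*Comp* and *Clu* were among the genes lower in gated cells of injured knees. At 10 cells or more, only Tom+ steady-state library 2 could be used for the steady state, and its spread was assumed to be that of the other groups. Of 3978 genes, 24 (0.603%) were lower and 0 higher in the 4 injured Tom+ libraries by edgeR's quasi-likelihood test, with 641 genes at an unadjusted p under 0.05 and 15 higher and 38 lower by DESeq2. The count was 128, 13 and 8 without injured library 1, 3 and 4. *Clu*, the chaperone clusterin (chromosome 14, 65968483 to 65981547), stood at 138, 84.2, 58.8 and 39.1 CPM after injury against 11697 (log2 fold change -7.20, standard error 0.43, adjusted p = 0.000529). *Comp* stood at 721, 654, 488 and 504 against 6669 (-3.56, standard error 0.26). *Angptl7* had 0 UMIs in the injured libraries against 2376 CPM. *Fbln1*, fibulin 1 (-2.80), *Ogn* (-3.20), *Cilp* (-4.89), *Alpl*, the alkaline phosphatase of mineralising cells (-7.44), *Phospho1* (-4.86) and *Kera*, keratocan (-6.29), were lower as well, and *Dcn*, decorin, stood at 6138 to 8046 against 25253 (-1.96, standard error 0.24). At the gate thinned to 5000 UMIs, *Clu*, *Cilp*, *Phospho1*, *Ogn* and *Fbln1* did not pass the test. *Kera*, *Cilp* and *Ogn* did not pass with the deposited file format as a block or without injured library 4. *Alpl* did not pass by DESeq2 or without injured library 4, and *Kera* and *Ogn* did not pass without injured library 3. Proteoglycans were lower in 3 of 7 tested. Of 8 fibrillar collagens none passed, with all 8 estimates above 0 (median 1.26, against 0.10 over all genes). In the 12 gated cells of Tom+ steady-state library 2, 60.2% of the *Clu* UMIs, 61.4% of the *Angptl7* UMIs, 77.1% of the *Alpl* UMIs, 92.5% of the *Phospho1* UMIs and 100% of the *Kera* UMIs came from 1 cell each, whereas *Comp* was seen in 11 of the 12 cells and *Ogn* in 9. In the 6 gated cells of Tom+ steady-state library 1, *Angptl7* and *Kera* had 0 UMIs, *Comp* stood at 1141 CPM, and *Clu* stood at 2412 CPM but at 44.6 without 1 cell, within the range of the injured libraries. At least 2 chondrocyte markers were present in 9 of these 12 cells. The 8 chondrocyte markers together stood at 2743 and 7989 CPM in the gated cells of the steady-state Tom+ libraries and at 1065, 1256, 571 and 577 in the injured ones, with *Comp* as the most abundant and *Col9a1*, *Col9a3* and *Col11a2* at 0 in the former. The 8 osteoblast markers stood at 2154 and 2284 against 457, 226, 212 and 166 CPM, with *Bglap2* as the most abundant over all gated cells and *Dmp1* and *Col13a1* at 0. The 7 mural markers went the other way, at 55.2 and 0 against 232, 227, 635 and 421 CPM. The 7 tenocyte markers overlapped, at 258 and 1343 against 946, 547, 11.8 and 279 CPM. The part of these 4 lists in the injury result was not tested.

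The 6 cells of Tom+ steady-state library 1 were added when libraries with at least 5 gated cells were allowed, an alternative chosen after the data were seen. Then 25 genes were higher and 86 lower of 3894 tested (2.85% in all), and in 109 of these 111 the injured and steady-state libraries did not overlap, as was the case for 36.1% of all genes tested. Of the 24 genes above, 17 were again called. *Cthrc1*, a secreted protein of remodelling fibroblasts, stood at 18.4 and 23.0 CPM in the steady state and at 1766, 672, 612 and 949 after injury (log2 fold change 5.40, standard error 0.72, adjusted p = 0.00854). *F13a1* stood at 18.4 and 11.5 against 180, 375, 465 and 308 CPM, a description like its levels above. *Col3a1* stood at 3443 and 2411 against 10091, 7848, 7685 and 7802 (1.39, standard error 0.24). *Tnfaip6*, which modifies hyaluronan, stood at 18.4 and 11.5 against 338, 651, 447 and 1242, and *Cxcl1*, a neutrophil chemokine, at 92.1 and 11.5 against 515, 949, 400 and 1198. *Cst3*, cystatin C, stood at 19461 and 18113 in the steady state against 3828, 2043, 4572 and 3752 after injury. These 3 genes were picked after their values were seen. *Col1a1*, at 3001 and 2732 against 5209 to 8177, did not pass (adjusted p = 0.0680). Of the 86 lower genes 22 were pseudogenes or unnamed gene models, and the steady-state libraries and injured library 1 were deposited in an older file format than injured libraries 2 to 4, which cannot be told apart from state except through injured library 1. Of the 24 genes lower in the first comparison, none was such a model.

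**Figure D5:**
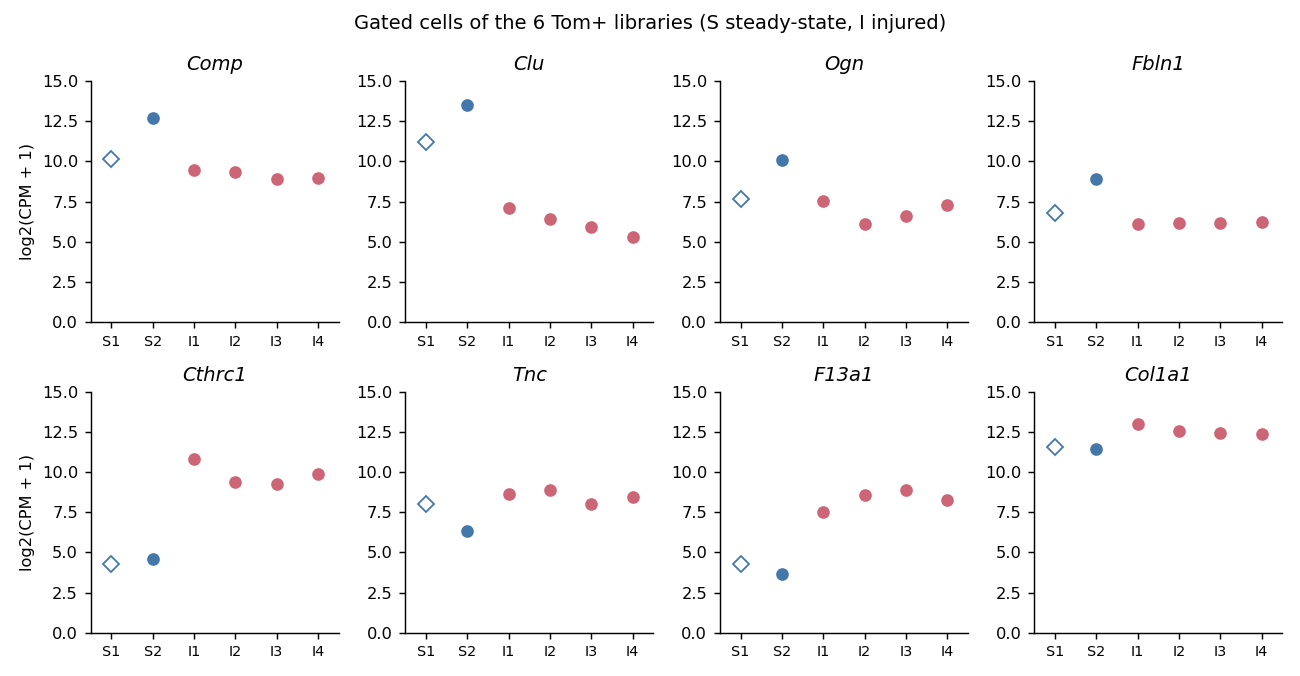
Panels give log2(CPM + 1) of 8 genes in the gated cells of the 6 Tom+ libraries, S for steady-state and I for injured; the open diamond is the library of 6 cells, filled points are libraries with at least 11 cells. *Comp* and *Clu* lie lower and *Cthrc1*, *F13a1* and *Col1a1* higher in all 4 injured libraries than in both steady-state libraries.

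Cell cycle genes were detected in gated cells of injured knees. At least 2 of 8 cell cycle genes were detected in 6 of 25, 6 of 65, 1 of 11 and 1 of 15 gated cells of the injured Tom+ libraries, in 4 of 15 and 0 of 2 cells of the injured Tom-GFP+ libraries, and in 0 of the 20 steady-state cells. By counting alone, 0 of 20 cells still allows a share of up to about 15%. With cells thinned to 5000 UMIs the Tom+ injured counts were 3 of 22, 6 of 55, 0 of 10 and 0 of 14, so 2 of these libraries held them all. In the Tom+ injured libraries 3.70% to 8.28% of lining cells and 2.08% to 24.1% of *Thy1*+*Cd34*+ fibroblasts reached 2 of these genes, against 1 of 19 lining cells and 0 of 215 fibroblasts in steady-state library 2. These shares were not tested. Against fibroblasts of the same libraries 0 of 15 cell cycle genes were higher and 4 lower in gated cells, namely *Ube2c* (-2.36), *Cenpf* (-1.79), *Birc5* (-1.73) and *Cdk1* (-1.66).

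Between gated and lining cells, the effect of injury differed for 64 of 8323 genes (0.769%), 35 upward (0.421%) and 29 downward (0.348%) in the gated cells, and for 35 without Tom+ injured library 2. At the gate thinned to 5000 UMIs 11 genes were called, 8 of the 64 among them.

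Between the lineages after injury, 4 of 3978 genes (0.101%) differed, 1 higher (0.0251%) and 3 lower (0.0754%) in Tom+ cells, from 4 Tom+ libraries against the 15 cells of Tom-GFP+ injured library 1, of which 8 had under 5000 UMIs and the other 7 gave 87.2% of the summed UMIs, with 318 genes at an unadjusted p under 0.05 and 8 genes, 7 of them higher, by DESeq2. The spread of the single Tom-GFP+ library was taken from the other groups, and no gene was called without cycling cells (320 at an unadjusted p under 0.05 in edgeR). The reporter tdTom, on which the cells were sorted, stood at 476, 615, 794 and 455 CPM against 8.62. *Ccl7*, a monocyte chemokine, stood at 25.7, 9.82, 11.8 and 34.2 CPM in Tom+ cells against 448 (log2 fold change -4.54, standard error 0.47, adjusted p = 0.0137), and *Adh5*, an alcohol dehydrogenase, at 80.4, 84.2, 112 and 108 against 655 (-2.76, standard error 0.28, but 1.31 without cycling cells). Over all gated cells, 64.5% of the *Ccl7* UMIs and 31.8% of the *Adh5* UMIs came from 1 cell each. The fourth gene was an unnamed gene model.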

How the data were processed

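The authors deposited raw UMI counts per gene and cell barcode from 9 10x Genomics 5′ libraries; the submitters' processing notes name Cell Ranger and GRCm38.p6, and 5 matrix headers give version 3.0.2. No normalization had been applied to the deposited counts. Positions are those of GENCODE vM21, which held 54409 of 54534 listed identifiers. Within each library with at least 10 cells of a class, their counts were added up, and tested with edgeR 4.0.16 (TMM, quasi-likelihood; R 4.3.3) after its filter on low counts, with one coefficient per group for states and lineages, and with library as a block between classes. Benjamini-Hochberg adjustment ran over all genes tested, at 0.05, and standard errors were derived from the F statistic. DESeq2 1.42.0, other scaling, filters and gates were alternatives. The study counts as many mice as libraries in each group and calls the Tom-GFP+ mice matched to Tom+ mice; the labels do not say which, so the lineages were compared without pairs. Doublets were not called. Named genes passed the test, reached 30 CPM, moved alike in every library and were the 10 largest changes per direction, without Gm, Rik, ribosomal, mitochondrial, X-inactivation and Y-linked genes; genes of the lists could be named too, and a gene that met this rule is not reported here. The gate, its members and the lists were chosen with earlier results of these data known. The scripts' tests were tested on simulated counts.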

Additional observations from a re-analysis of the deposited data

Results flagged for a closer look

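A library far from the other 3 was found for 6 of 31 quantities checked over the Tom+ injured libraries, where chance gives about 5%. *Cpe* stood at 683 CPM in gated cells of 1 library against 302 to 306 in the others. *Mmp13* stood at 540 CPM against 24.5 to 64.7, and *Crispld2* at 109 against 11.8 to 28.1. *Gpr1*, *Rab37* and *Slurp1* stood at 4.89, 2.81 and 12.9 CPM in 1 library each against 0 in the other 3. *Gpr1* and *Rab37* rest on 1 and 2 UMIs. With 0 in the other 3 libraries, a single library with any UMI had to stand apart for each of these genes. The count of 6 can therefore not be set against the 5%.

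The effect of injury differed between gated and lining cells for 64 of 8323 genes (0.769%), 35 upward and 29 downward in the gated cells, by the interaction term in edgeR's quasi-likelihood fit. It rests on 1 steady-state library of 12 gated and 19 lining cells. *Cthrc1* stood at 23.0 CPM in gated cells of the steady state and at 612 to 1766 after injury, while in lining cells it went from 429 to between 104 and 131, a difference of the effects of 7.21 on the log2 scale (standard error 0.77, adjusted p = 6.27e-05), but at the gate thinned to 5000 UMIs this difference was -0.11. *Mgp*, matrix Gla protein, stood at 758 and 307 to 836 CPM in gated cells and at 301 and 6.49 to 26.0 in lining cells (4.27, standard error 0.42). *Postn* (6.12), *Mfap5* (5.43), *Thbs4* (5.05), *Rspo2* (4.70) and *Vcam1* (4.59) also differed upward. At the thinned gate *Postn*, *Thbs4* and *Tagln* changed sign, and 13 other genes named here did not pass the test. *Tagln* (13.99), *Acta2* (12.92) and *Stmn1* (10.50) had 0 UMIs in the 12 steady-state gated cells, so their fitted values depend on the prior count. *Tagln* stood at 77.2 to 362 CPM after injury in gated cells, and at 507 before and 20.1 to 105 after in lining cells.

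In the other direction *Dcn* fell from 25253 to between 6138 and 8046 CPM in gated cells, and stood at 2455 and 3693 to 7450 in lining cells (-2.91, standard error 0.24, adjusted p = 3.51e-06). *Errfi1*, an inhibitor of EGF receptor signalling (-2.96), *Fbln1* (-2.92), *Lum* (-3.12), *Spp1*, osteopontin (-3.42), *Timp3* (-4.16), *Pth1r*, the parathyroid hormone receptor (-4.53), *Olfml2a* (-6.88) and *Hhip*, a hedgehog inhibitor (-7.79), also differed. *Clu* (-14.09) had 0 UMIs in the steady-state lining cells, so its value is no bound.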

How the results depend on the processing

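Of the 20 genes named against lining cells and the 20 against fibroblasts none changed direction in 291 and 296 recomputed values, and 1 and 13 of these values did not pass the test. The difference in the share of gated cells kept its sign throughout, but their share of gated plus lining cells turned to 0.847 points without gated cells holding osteoblast, tenocyte, mural, adipocyte, immune or endothelial markers (exact permutation p = 0.933). Lining cells holding such markers were kept. For injury (24 genes called), DESeq2 called 53, no filter on low counts 340, the thinned gate 11 (3 of the 24), the file format as a block 12 (9 of the 24) and libraries of at least 5 gated cells 111; leaving out a library gave 8 to 128. A replicate block could be fitted only with libraries of at least 5 gated cells and gave 190 calls; deviations of same-numbered libraries correlated at -0.0194 over 3978 genes, so the numbers were not taken as pairs. *Kera* turned to 0.47 at the thinned gate. For the lineages (4 genes), DESeq2 gave 8, no filter 85, the thinned gate 1, the format block 7, cells without cycling markers 0 in edgeR (320 at an unadjusted p under 0.05) and leaving out a library 2 to 6; *Adh5* turned to 1.31 without cycling cells. Against lining cells (1015 genes) there were 472 calls without the replicate block of libraries and 529 to 1235 without a library. Against fibroblasts (594 genes) there were 937 at the thinned gate, 374 without gated cells holding these markers, 108 without the block and 313 to 597 without a library. For the interaction (64 genes), DESeq2 gave 42, no filter 128, the thinned gate 11, cells without cycling markers 38 and leaving out a library 35 to 93. At the thinned gate *Tagln* (-1.96), *Cthrc1* (-0.11), *Postn* (-2.83) and *Thbs4* (-3.34) were reversed. The cause of these changes was not tested. Gates at 20 *Prg4* UMIs, without other markers, or without Tom+ steady-state library 2 left no steady-state library for the injury fits. Depth limits the gate, since 27 gated cells had under 5000 UMIs.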
